A study of Mus musculus with 14 samples.

Results

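M/D-driven tumors are mammary tumors that arise in C57Bl/6 mice given a slow-release medroxyprogesterone acetate (MPA, a progestin) pellet and repeated doses of the carcinogen 7,12-dimethylbenz[a]anthracene (DMBA). The sample labels place 7 of the 14 tumors of the series in experiment 1 of this model, and these were taken by that label alone. They comprise 4 untreated tumors (numbered 1 to 4) and 3 tumors of mice that received nicotinamide (NAM) at 0.5% in the drinking water for 10 days (numbered 2 to 4). NAM-treated tumor 1 carries the label of experiment 2 and was kept out of the comparison, together with 6 tumors of another model. All mice were females aged 6 to 9 weeks at implantation of a pellet that releases MPA over 90 days, all received 6 gavages of DMBA, and treatment was allocated once tumors measured 0.25 cm2. Every untreated tumor thus carries the progestin and the carcinogen as well. Each tumor is a primary lesion that arose in its host and not a graft, and the labels do not say whether any mouse gave more than 1 tumor.

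NAM is the amide form of vitamin B3. Cells convert it into NAD+ through nicotinamide phosphoribosyltransferase (NAMPT), and NAD+ is in turn consumed by sirtuins and poly(ADP-ribose) polymerases, which NAM inhibits at high concentration. Excess NAM is cleared by methylation through nicotinamide N-methyltransferase (NNMT). The mammary gland in which these tumors grow consists of luminal and basal epithelial cells embedded in a fat pad, beside muscle and skin, and carcinogen-driven mammary tumors in mice may contain squamous (keratin-forming) areas.

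Bulk poly(A) RNA was sequenced with 1 library per tumor, and levels are given as counts normalized by the authors. The reads recovered from these counts ranged from 54850343 to 84178009 in untreated and from 50391585 to 64927268 in NAM-treated tumors, and the 10 most abundant genes took 5.65% to 8.457% of them. Out of 56414 genes listed, 21267 were at 0 in all 7 tumors and 21489 reached a group mean of 10 or more and were tested. In tissue sequenced in bulk, fewer cells of a type and less RNA per cell cannot be told apart.

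Before treatment is considered, the 7 tumors differed from each other in tissue makeup. Untreated tumors 1, 3 and 4 and NAM-treated tumor 2 were keratinizing tumors by their RNA, whereas untreated tumor 2 and NAM-treated tumors 3 and 4 were not. The mean log2(normalized count + 1) over 21 genes of squamous differentiation and the cornified envelope was 12.09, 5.45, 13.53 and 15.15 in untreated tumors 1 to 4 and 12.02, 6.22 and 4.98 in NAM-treated tumors 2 to 4. *Krt10*, a keratin of the upper epidermis, had normalized counts of 95006, 79.3, 190149 and 370221 in untreated and 2302, 107.7 and 113.9 in NAM-treated tumors, and its groups overlap. The first principal component of the 1000 most variable genes held 59.2% of their variance and put the 4 keratinizing tumors on the same side. The summed count of *S100a8*, *S100a9* and *Csf3r* was 174487 to 394867 in untreated tumors 3 and 4 and NAM-treated tumor 2, 28770.2 in untreated tumor 1, and 412.4 to 1896 in the other three. Most of it was *S100a8* and *S100a9*, calprotectin genes of neutrophils that keratinizing epithelium also expresses. *Csf3r*, the G-CSF receptor of neutrophils, spanned a smaller range, with 376, 276, 1249.6 and 825.7 in untreated and 1942, 202.5 and 464.5 in NAM-treated tumors.

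Skeletal muscle RNA was the other large source of variation. The mean over 16 muscle genes was 4.11, 4.88, 10.65 and 9.74 in untreated and 11.92, 6.86 and 13.95 in NAM-treated tumors, so that NAM-treated tumors 2 and 4 lay above all untreated tumors and NAM-treated tumor 3 below a pair of them. Creatine kinase of muscle (*Ckm*) had counts of 5.19, 5.43, 3679 and 1949.9 in untreated and 13652, 137.2 and 32007 in NAM-treated tumors. Markers of luminal epithelium were present, as the summed counts of *Krt8*, *Krt18*, *Epcam* and *Cdh1* were 62053.9 to 227009 in all 7 tumors. Across all genes, the closest pairs were of untreated tumors, while untreated tumor 2 and NAM-treated tumors 2 and 3 were each closest to a tumor of the other group. Spearman's rho was 0.95 between untreated tumor 2 and NAM-treated tumor 3, 0.877 between NAM-treated tumors 2 and 4, and at most 0.974 between untreated tumors (across genes, which are not independent replicates). Its median was 0.946 for untreated pairs, 0.926 for mixed pairs and 0.898 for NAM-treated pairs.

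**Figure D1:**
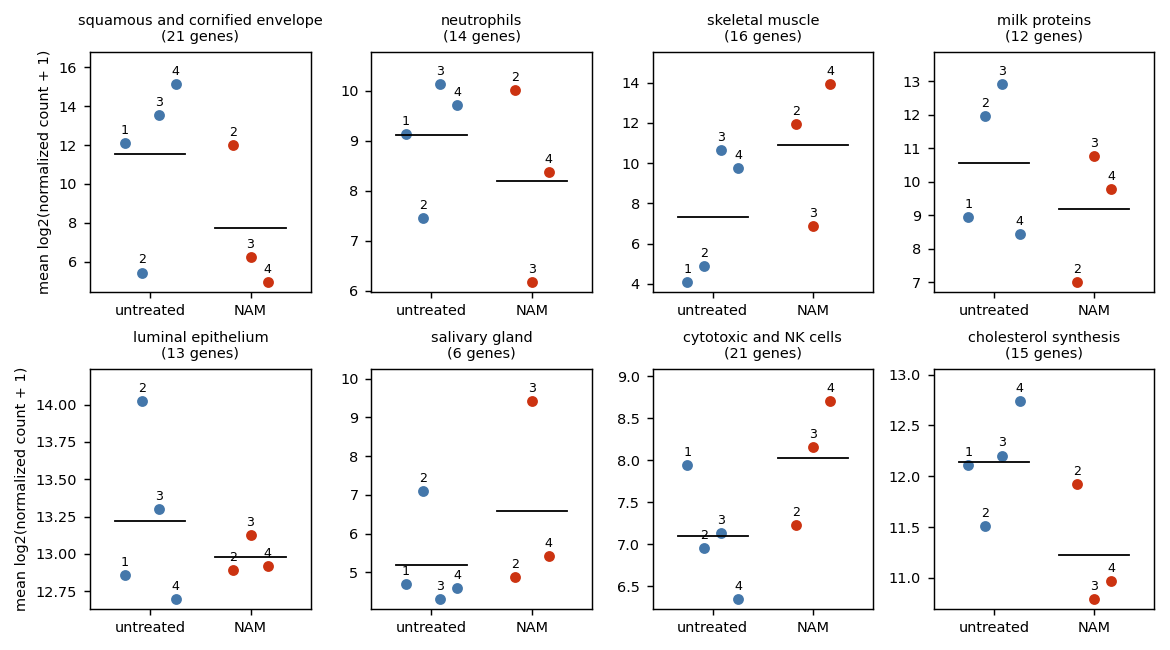
Mean log2(normalized count + 1) over the tested genes of 8 gene lists, with 1 point per tumor (blue, untreated tumors 1 to 4; red, NAM-treated tumors 2 to 4) labelled with the tumor's number, a line at the group mean, and a y axis of its own in each panel, not starting at 0. Squamous genes are low in untreated tumor 2 (5.45) and NAM-treated tumors 3 and 4 (6.22 and 4.98), muscle genes are highest in NAM-treated tumors 2 and 4, and every panel has groups that overlap.

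The first question was how many genes differed between NAM-treated and untreated tumors. At the study's thresholds (unadjusted p of at most 0.05 by limma and a fold change of at least 1.5), 612 genes were higher (2.85% of those tested) and 500 were lower (2.33%) with NAM, or 5.17% in either direction. An unadjusted p of 0.05 was passed by 1276 genes (5.94%). At a Benjamini-Hochberg adjusted p of 0.05, 0 genes passed by limma, 0 by the edgeR quasi-likelihood test and 150 by the Wald test of DESeq2, the latter tests being on recovered reads. The lowest adjusted p by limma was 0.148, for *Fam180a*, and that of all other genes described here as past the thresholds was 0.812. Untreated and NAM-treated values were fully separated for 1487 genes (6.92%), 840 of them (3.91%) with NAM higher and 647 (3.01%) with NAM lower.

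Squamous and muscle RNA moved with these counts, and the fit was repeated with the level of each as a covariate. With the squamous level of each tumor as a covariate, 971 genes were higher and 770 lower, and 61.6% and 53% of the original calls were among them. With the muscle level as a covariate, 319 were higher and 742 lower, which kept 30.7% and 71.4%. NAM-treated tumor 2, the only keratinizing tumor of its group, had the strongest hold on the counts, since 1322 genes were higher and 1167 lower without it. In all, 104 higher and 129 lower genes kept their calls without each of the 7 tumors in turn and with either covariate. These include 14 of the 15 lower and 6 of the 15 higher genes with the largest fold change among the non-overlapping, well expressed genes described next.

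**Figure D2:**
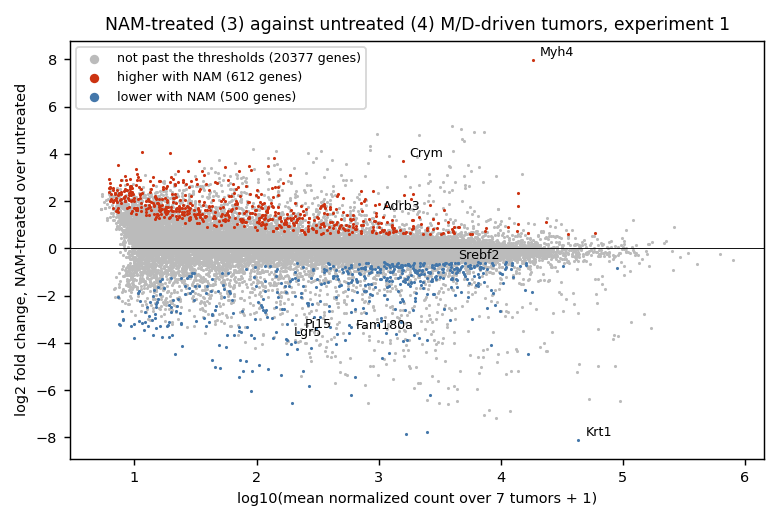
Log2 fold change (NAM-treated over untreated, y axis) against the log10 mean normalized count over the 7 tumors (x axis) for the 21489 genes tested, with 612 higher genes in red and 500 lower genes in blue. *Fam180a*, *Pi15* and *Lgr5* stand near −3.5 to −3.9, while genes with larger changes such as *Krt1* (−8.10) and *Myh4* (7.99) belong to the squamous and muscle lists that vary from tumor to tumor.

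*Fam180a*, a gene of unknown function, had the lowest p of all genes tested. It had normalized counts of 1022, 1370.1, 783.2 and 589.1 in untreated tumors 1 to 4 and 82.8, 71.8 and 70.6 in NAM-treated tumors 2 to 4, for a log2 fold change of −3.56 ± 0.32 (SE, n = 4 and 3). The 3 NAM-treated tumors lay within a narrow range, far below the lowest untreated tumor, and the fold change stayed between −3.77 and −3.36 whichever tumor was left out. The gene lies on chr6:35312668-35326141 of mm10. An exact two-sided permutation test over 35 splits gave p = 0.0571, which is the smallest that 4 against 3 tumors allow (0.0686 after Benjamini-Hochberg adjustment over the 6 genes tested in this way). For *Srebf2*, *Adrb3*, *Adipoq* and *Erbb2*, described in what follows, the values were the same, and for *Gzmb* the exact permutation test gave p = 0.114. Any gene whose groups do not overlap, 6.92% of those tested, gives that smallest value. The permutation test thus adds nothing to the separation already seen, and its adjustment does not cover the 21489 genes tested.

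*Pi15* (chr1:17601900-17630938), a peptidase inhibitor of the CAP family, followed the same pattern. Its counts were 366.7, 356.4, 378.5 and 305 in untreated and 79.2, 21.2 and 14.4 with NAM, for a log2 fold change of −3.54 ± 0.56. *Lgr5* (chr10:115450314-115587780), the R-spondin receptor that marks stem cells in several epithelia, had counts of 292.9, 216.2, 398.8 and 228.5 against 35.3, 3.68 and 40.9 (−3.85 ± 0.78). *Hmga2* (chr10:120361275-120476935), an architectural chromatin protein of embryonic and tumor cells, had counts of 468.5, 345.5, 202.8 and 246.3 against 53.6, 25.8 and 3.21 (−4.04 ± 0.84). None of these genes had a NAM-treated tumor inside the untreated range, and all of them kept their calls without any 1 tumor and with either covariate.

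Several of the other lower genes were low in untreated tumor 2, the untreated tumor without keratinization, while still separating the groups. Among NAM-treated tumors, the keratinizing tumor 2 was highest for *Hsd17b2* but had 0 counts of *Tfap2e*. The transcription factor gene *Tfap2e* had counts of 178.7, 11.9, 147.2 and 149.7 in untreated tumors, with untreated tumor 2 lowest, and 0, 1.84 and 1.604 in NAM-treated tumors (−5.44 ± 1.03). *Hsd17b2*, which inactivates estradiol and testosterone by oxidation, had counts of 286.7, 40.2, 552 and 559.3 against 32.9, 7.36 and 6.42 (−4.26 ± 1.03). *Ush1c*, a scaffold of microvilli and stereocilia, had counts of 294, 9.78, 61.6 and 350.1 against 2.44, 1.84 and 1.604 (−4.96 ± 1.20). In each of these, untreated tumor 2 was the lowest of its group and still above every NAM-treated tumor. The mucosal chemokine *Ccl28* ran the other way within the untreated group, with counts of 38.4, 324.9, 54.1 and 173 and its peak in untreated tumor 2, against 2.44, 16.6 and 8.02 with NAM (−3.69 ± 0.90).

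*Nr4a2*, an orphan nuclear receptor and immediate early gene, had counts of 4503, 395.5, 3105 and 2086 in untreated and 132.7, 308.4 and 227 in NAM-treated tumors (−3.13 ± 0.80). *Mgst2*, a microsomal glutathione transferase that also makes leukotriene C4, had counts of 933.8, 1118, 2505 and 1766 against 845.1, 67.2 and 88.2 (−3.09 ± 0.86). NAM-treated tumor 2 stood just under the lowest untreated tumor for *Mgst2*, and the other NAM-treated tumors far lower. The rest of the 15 largest separated decreases were *Tsga10ip*, *Atp13a5*, *1700012B07Rik*, *Synpr* and *Kcns1*, with log2 fold changes of −3.34 to −5.18. *Kcns1*, a modulatory potassium channel subunit, was the exception among the 15 that did not keep its call, and untreated tumor 2 alone held 3501 counts against 102.8 to 221.5 in the other untreated tumors.

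Smaller decreases were seen in genes with high counts. *Adamts1*, a secreted metalloprotease that cleaves proteoglycans, had counts of 2933, 1829, 3323 and 4557 in untreated and 1137, 1239 and 1020.4 in NAM-treated tumors (−1.41 ± 0.30), and its call held without any 1 tumor and with either covariate. *Cdh1*, the E-cadherin of epithelial junctions, had counts of 40386, 43070, 37883 and 35044 against 20533, 19959 and 31298 (−0.74 ± 0.21). The groups overlap for neither gene, while the 12 other genes of the luminal epithelium list did not pass, among them *Krt8* with 17482, 59042, 16492 and 7168 against 9004, 49226 and 43375 (0.52 ± 0.82). *Esrp1*, of the same list, was also lower without overlap, at −0.52 ± 0.15 (unadjusted p = 0.00898 by limma), but fell short of the 1.5-fold threshold. *Gabarapl1*, an autophagosome protein of the LC3 family, had counts of 1794, 2746, 1882 and 2143 against 1388, 1191 and 1304 (−0.71 ± 0.20). It was the only 1 of 29 autophagy genes that passed, where 2.33% of all genes tested were lower. The median log2 fold change of the list was −0.12, against −0.0022 for all genes tested.

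The higher genes were less uniform, and most of the largest increases were carried by 1 or 2 NAM-treated tumors. *Coro6*, an actin-binding coronin found in muscle and nerve, had counts of 6.23, 14.1, 28.5 and 16.9 in untreated and 361.7, 63.5 and 468.5 in NAM-treated tumors (3.84 ± 0.81). *Dmpk*, the kinase of myotonic dystrophy, had counts of 327.2, 676.9, 424.3 and 530.3 against 2988, 683.9 and 5682 (2.26 ± 0.67). Both were highest in NAM-treated tumors 2 and 4, the tumors with most muscle RNA. *Coro6* kept its call with the muscle level as a covariate, whereas the fold change of *Dmpk* was then 1.56 and did not pass. *Crym*, which binds thyroid hormone in the cytosol, had counts of 94.5, 133.6, 30.8 and 69.2 against 9921, 566.1 and 156.4 (3.71 ± 1.30), with NAM-treated tumor 2 far above the others.

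NAM-treated tumor 3 carried a different group of increases. *Alx4*, a homeobox gene of mesenchyme, had counts of 211.9, 126, 291.4 and 119.1 in untreated and 639.3, 3224 and 402.7 in NAM-treated tumors (2.42 ± 0.72). *Slc35f1*, a putative transporter, had counts of 46.7, 19.6, 25.5 and 28.2 against 51.1, 717.1 and 425.2 (3.09 ± 0.88). *Gucy2e*, a guanylate cyclase of photoreceptors, had counts of 6.23, 13.0, 1.502 and 6.44 against 31.7, 419.7 and 17.6 (3.27 ± 1.15). In NAM-treated tumor 4, *Sox14* and *Lrrn3* stood out, with 884.8 and 701.1 counts against at most 43.6 and 39.5 in any untreated tumor, while NAM-treated tumor 2 was at 68.2 and 41.4. The remaining genes of the 15 were *Gp5*, *F930015N05Rik*, *Ube2ql1*, *Col13a1*, *Cap2* and 2 microRNA loci, with log2 fold changes of 2.27 to 3.43. The row of *Mirlet7i* spans 757 bases and that of *Mir339* 2963 bases, so that in a poly(A) library they hold longer transcripts and not the mature microRNAs. Both loci were called in every fit with a tumor left out or a covariate added, with counts of 29.1, 21.7, 84.1 and 35.4 against 228.9, 135.3 and 212.6 for *Mirlet7i* (2.30 ± 0.52).

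**Figure D3:**
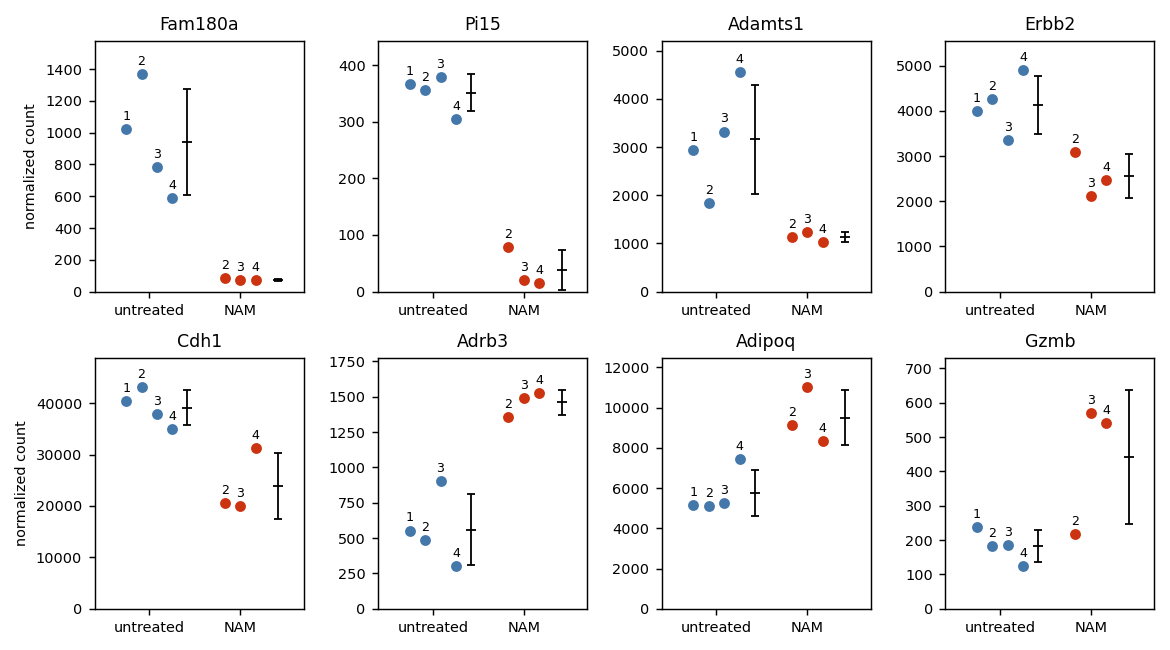
Normalized counts (y axes from 0) of 8 genes in untreated tumors 1 to 4 (blue) and NAM-treated tumors 2 to 4 (red), labelled with the tumor's number, with the mean ± SD of each group in black. All 3 NAM-treated tumors lie below the untreated tumors for *Fam180a*, *Pi15*, *Adamts1*, *Erbb2* and *Cdh1* and above them for *Adrb3* and *Adipoq*, whereas for *Gzmb* NAM-treated tumor 2 (216.8) lies within the untreated range.

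Genes of cholesterol synthesis had fold changes below 0, and 7 of 15 passed. The pathway makes sterols from acetyl-CoA and is switched on by the transcription factor SREBP-2 when sterols in the endoplasmic reticulum run low. All 15 genes of the list described here had a fold change below 0, beside 49.8% of all genes tested with a fold change above 0, and 7 passed the thresholds downward, where 2.33% of all genes did. The median log2 fold change was −0.90, with a range of −1.32 (*Cyp51*) to −0.10 (*Insig1*). *Srebf2*, which encodes SREBP-2 itself, had counts of 5028, 4236, 3957 and 5111 in untreated and 3060.3, 2689.7 and 3213 in NAM-treated tumors (−0.61 ± 0.16), and *Nsdhl*, a sterol dehydrogenase, had 2037, 1860.1, 2333 and 3239.9 against 1527, 945.3 and 1539 (−0.83 ± 0.27). These were the 2 members of the 15 whose groups do not overlap.

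The other members that passed were *Fdps* and *Fdft1*, which build farnesyl diphosphate and squalene, *Sqle*, which oxidizes squalene, and *Cyp51* and *Dhcr7*, which act late in the pathway, after the sterol rings are closed. *Fdps* had counts of 8036, 6282, 6729 and 13455 in untreated and 7384, 2431 and 2467 in NAM-treated tumors (−1.22 ± 0.45). *Dhcr7* had 3487, 2126, 3226 and 4539.6 against 2278, 1277 and 1335 (−1.04 ± 0.32). In both, NAM-treated tumor 2 lay within the untreated range and NAM-treated tumors 3 and 4 below it. *Insig1*, the sterol-sensing retention protein (−0.10 ± 0.25), did not pass.

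The level of this pathway also varied with the squamous level. The mean log2 level over the 15 genes was 12.11, 11.51, 12.20 and 12.74 in untreated and 11.92, 10.79 and 10.97 in NAM-treated tumors, and within each group the tumors low in squamous genes (untreated tumor 2 and NAM-treated tumors 3 and 4) were the lowest. NAM-treated tumor 2 lay within the untreated range. With the squamous level as a covariate, 2 of the 15 members were called lower, and with the muscle level 12. Leaving out 1 tumor at a time moved the count from 1 (without NAM-treated tumor 3) to 14 (without untreated tumor 2). It was 12 when NAM-treated tumor 2 was dropped, 3 when either untreated tumor 1 or NAM-treated tumor 4 was, and 2 when untreated tumor 4 was. *Dhcr7* was the member that kept its call in each of these fits.

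**Figure D4:**
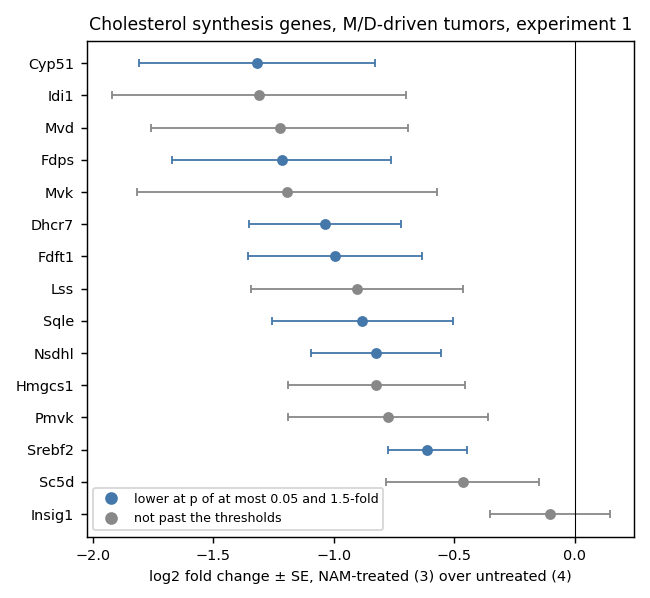
Log2 fold change ± SE (x axis) of 15 cholesterol synthesis genes in NAM-treated (n = 3) over untreated (n = 4) tumors, with the 7 members past the thresholds in blue and the others in grey. All 15 points lie to the left of 0, from −1.32 (*Cyp51*) to −0.10 (*Insig1*).

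Since these genes shared a direction, their promoters are shown for the called members with an entry in RefSeq (GRCm38.p6), and for *Hmgcs1*, the synthase that makes HMG-CoA. A RefSeq promoter was found for 12 of the 15 genes, among them 4 of the 7 that passed. Promoters of *Fdps*, *Fdft1* and *Sqle* were not used here. SREBP-2 is known to act with NF-Y, which binds CCAAT, at sterol elements such as TCACNCCAC. Capitals mark CCAAT, its reverse complement ATTGG, and TCACNCCAC on either strand, in the 200 bases before the start, written 5′ to 3′ on the strand of the gene. For *Dhcr7* only the third start, printed here, had a match in these bases. Its other stretches, chr7:143822967-143823166 and chr7:143823199-143823398, had 0, and the row of *Dhcr7* in the counts begins at chr7:143823167, directly after the first of them.
Srebf2, chr15:82147069-82147268, plus strand: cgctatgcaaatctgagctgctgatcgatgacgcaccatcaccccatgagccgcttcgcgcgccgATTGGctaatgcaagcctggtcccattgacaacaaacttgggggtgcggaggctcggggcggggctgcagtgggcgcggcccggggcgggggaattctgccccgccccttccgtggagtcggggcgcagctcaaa
Nsdhl, chrX:72918321-72918520, plus strand: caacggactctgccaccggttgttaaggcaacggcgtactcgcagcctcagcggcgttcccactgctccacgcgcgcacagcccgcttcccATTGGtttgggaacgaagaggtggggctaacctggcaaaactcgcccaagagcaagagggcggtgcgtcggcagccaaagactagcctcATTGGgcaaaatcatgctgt
Cyp51, chr5:4104698-4104897, minus strand: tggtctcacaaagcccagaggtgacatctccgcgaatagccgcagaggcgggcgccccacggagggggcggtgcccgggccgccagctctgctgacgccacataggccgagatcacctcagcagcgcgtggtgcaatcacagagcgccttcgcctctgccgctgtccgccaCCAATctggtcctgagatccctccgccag
Dhcr7, the third of its starts, chr7:143830014-143830213, plus strand: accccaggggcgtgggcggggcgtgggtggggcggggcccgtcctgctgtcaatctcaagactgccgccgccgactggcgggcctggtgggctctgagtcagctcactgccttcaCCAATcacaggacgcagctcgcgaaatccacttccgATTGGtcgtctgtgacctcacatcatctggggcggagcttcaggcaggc
Hmgcs1, chr13:119690151-119690350, plus strand: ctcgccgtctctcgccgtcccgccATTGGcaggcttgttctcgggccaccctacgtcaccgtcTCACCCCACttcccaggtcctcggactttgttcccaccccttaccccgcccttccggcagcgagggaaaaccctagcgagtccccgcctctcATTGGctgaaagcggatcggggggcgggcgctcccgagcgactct

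In the 250 bases before a start, CCAAT or ATTGG was found for 12 of 12 genes of the list with an entry, against 37.5% of all 27025 genes with one. TCACNCCAC was found for 1 of 12, *Hmgcs1*, against 1.22%. The motifs were searched after the values had been seen, genes with several starts had more sequence to match, and a match describes letters and not a bound site. *Hmgcs1* did not itself pass the thresholds (log2 fold change −0.82 ± 0.37).

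The list of fatty acid synthesis had a median of −0.11, and 2 of 12 genes were lower (2.33% of all genes tested). These were *Acss2*, which makes acetyl-CoA from acetate, with 2453, 1452, 2112 and 3588 in untreated and 870.7, 781.5 and 1717 in NAM-treated tumors (−1.11 ± 0.38), and *Me1*, the cytosolic malic enzyme (−0.89 ± 0.30). For both genes the groups overlap through NAM-treated tumors 2 or 4. Both calls held with the muscle covariate and were lost with the squamous covariate, at −0.94 for *Acss2* and −0.62 for *Me1*.

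Genes of NAD+ metabolism had few calls. Of 21 genes of NAD+ synthesis and NAM clearance, 0 passed by limma (0 at an unadjusted p of 0.05), 1 by edgeR and 1 by DESeq2, 12 had a fold change above 0 and the median was 0.06. *Nampt* had counts of 7615, 4746, 5441 and 4717 in untreated and 5092, 4939 and 6175 in NAM-treated tumors (−0.04 ± 0.21), and *Nnmt* had 820.6, 502, 682.6 and 1312 against 1329.8, 1159.8 and 527.9 (0.26 ± 0.43). For *Nampt* all 3 NAM-treated tumors lay within the untreated range, and for *Nnmt* 2 did. The member called by edgeR was the aldehyde oxidase *Aox3* (limma −1.88 ± 1.26) and the one called by DESeq2 was *Ido1*, the first enzyme of tryptophan breakdown, with 8.31, 142.3, 24.0 and 66.0 against 34.1, 661.8 and 118.7 (limma 1.86 ± 1.22) and overlapping groups. Of 24 NAD+ consumers 1 passed, where 2.85% of all genes tested were higher. This was *Sirt4*, a mitochondrial sirtuin, with 303.3, 277.1, 287.6 and 247.1 against 487.1, 314.8 and 526.3 (0.63 ± 0.26), and *Sirt1* was at −0.06 ± 0.19. The call of *Sirt4* was lost with either covariate, at 0.645 and 0.50 on the log2 scale.

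Receptors of the EGFR family were lower in part. *Erbb2*, which encodes HER2, had counts of 4000.1, 4267, 3354 and 4905 in untreated and 3088, 2124 and 2466 in NAM-treated tumors (−0.69 ± 0.20, unadjusted p = 0.00947 by limma), with no overlap. Its partner *Erbb3* had 3140, 4858, 3053 and 2292 against 1301, 2254 and 2289.5 (−0.77 ± 0.31), and the ligand betacellulin (*Btc*) had 584.8, 1028, 1171 and 1385 against 456.7, 751.1 and 527.9 (−0.81 ± 0.34). These were the 3 of 14 genes of the list that passed, where 2.33% of all genes tested were lower, and the median of the list was −0.75. The call of *Erbb2* held with either covariate and without each tumor other than NAM-treated tumor 3, without which the fold change was −0.57. That of *Erbb3* was lost with the muscle covariate (−0.56) and without 4 of the 7 tumors, and that of *Btc* with both covariates (−0.82 and −0.93) and without 5 of the 7 tumors. All 3 calls were lost with upper quartile scaling and with NAM-treated tumor 1 added, when *Erbb2* was at −1.65 with a wider spread. In each of these fits 0 of the 14 genes were called lower. A second, shorter row under the symbol of *Erbb2* (chr11:98436924-98440136), which overlaps its end, was at −1.07 ± 0.39.

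Among hormone receptors and luminal factors, *Ehf*, an ETS factor of epithelium, was the only 1 of 15 genes that passed, with 14736, 13290.1, 12978 and 10170.3 in untreated and 3100.5, 7253 and 9582 in NAM-treated tumors (−1.08 ± 0.37). Of all genes tested, 2.33% were lower. The call of *Ehf* held with the squamous covariate and was lost with the muscle covariate, at −0.99. The receptors themselves spanned a wide range within each group. *Esr1* (estrogen receptor) had counts of 129.8, 573.7, 217.8 and 734.7 against 165.6, 799 and 488.5 (0.28 ± 0.75), and *Pgr* (progesterone receptor) had 167.2, 718.2, 71.3 and 189.1 against 26.8, 738.2 and 315.3 (−0.11 ± 1.20). The sign of both changed with the fit. Beside *Lgr5*, the osteoprotegerin gene *Tnfrsf11b* was lower in the list of progesterone's paracrine signals, with 2128, 1787, 3114 and 1652 against 1672, 197 and 315.3 (−2.16 ± 0.68), and NAM-treated tumor 2 lay within the untreated range.

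Adipocyte genes were higher in 3 of 16 cases, and each of the 3 separated the groups. Of all genes tested, 2.85% were higher and 3.91% separated the groups with NAM higher. *Adrb3*, the beta-3 adrenergic receptor of fat cells (chr8:27225776-27229588), had counts of 553.6, 484.6, 902.7 and 300.2 in untreated and 1359, 1494 and 1529.8 in NAM-treated tumors (1.49 ± 0.35). *Adipoq*, which encodes adiponectin, had 5156, 5123, 5276 and 7452 against 9137, 11020.1 and 8358 (0.73 ± 0.20). *Pparg*, the master regulator of adipogenesis, had 472.6, 424.8, 620.3 and 794.3 against 809.8, 1048 and 803 (0.65 ± 0.27), a margin of less than 10 counts between the highest untreated and lowest NAM-treated tumor. The calls of *Adrb3* and *Adipoq* held without each tumor and with either covariate, and that of *Pparg* was lost in the muscle fit, at 0.53, and without 6 of the 7 tumors, at 0.52 to 0.82 over all 7 fits.

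The adipocyte list as a whole did not move with these genes. Its median was 0.19 with 12 of 16 genes above 0, its mean level was 10.03 to 11.55 in untreated and 10.67 to 11.12 in NAM-treated tumors, and *Plin1*, the perilipin of the fat droplet, was at 0.18 ± 0.32. Summed counts of the markers *Adipoq*, *Plin1* and *Lep* were 7389, 7348, 7076 and 12914.5 in untreated and 11631, 16589 and 11448 in NAM-treated tumors, so that untreated tumor 4 overlapped the NAM-treated tumors. The amount of fat pad in each sample was not tested otherwise.

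Genes of cytotoxic lymphocytes and natural killer (NK) cells had fold changes above 0 in 21 of 21 cases, with a median of 0.79, and 3 passed. Of all genes tested, 49.8% were above 0 and 2.85% were higher. Granzyme B (*Gzmb*), which triggers death of target cells, had counts of 237.9, 183.6, 187 and 123.9 in untreated and 216.8, 570.7 and 539.9 in NAM-treated tumors (1.18 ± 0.42). *Klrb1c*, which encodes the NK1.1 receptor, had 197.4, 76.1, 85.6 and 78.1 against 131.5, 316.6 and 343.3 (1.27 ± 0.50), and granzyme C (*Gzmc*) had 156.8, 60.8, 123.9 and 207.6 against 451.8, 2425 and 157.2 (2.14 ± 0.89). In each of the 3 genes 1 NAM-treated tumor lay within the untreated range, and granzymes and killer cell receptors belong to families of similar sequence whose reads may be hard to assign. Untreated tumor 1 was close to the NAM-treated tumors for the list as a whole, whose mean was 7.95, 6.96, 7.14 and 6.35 in untreated and 7.23, 8.16 and 8.71 in NAM-treated tumors.

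The count of called NK and cytotoxic genes was 1 with the squamous level as a covariate and 4 with the muscle level, and ranged from 1 to 5 with a tumor left out. Perforin (*Prf1*) had 235.8, 89.1, 93.9 and 66.0 against 84.0, 1238 and 319.3 (1.58 ± 0.88) and did not pass. Markers of T cells did not pass either. *Cd3e*, a chain of the T cell receptor complex, had 469.5, 217.3, 280.1 and 172.2 against 220.4, 288.1 and 777.3 (0.47 ± 0.52), and *Cd8a*, the co-receptor of cytotoxic T cells, had 1540.4, 676.9, 925.2 and 421.7 against 731.9, 722.6 and 2816 (0.52 ± 0.60), with NAM-treated tumor 4 highest for both. Of 18 T cell genes the only 1 that passed was *Bcl11b*, a T cell factor that skin epithelium also expresses, and it was lower, with 866.3, 165.1, 748 and 901.3 against 214.3, 79.2 and 144.4 (−2.04 ± 0.66). Of all genes tested, 2.33% were lower.

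The study names immune genes as higher with NAM from transcriptomes of M/D-driven tumors. By its size, the NAM-treated group of that comparison also held the tumor left out here. Within experiment 1, 0 of these 6 genes passed by limma, edgeR or DESeq2, and 0 had an unadjusted p of 0.05 or less in any of these tests. This is thus not a repeat on the same tumors. The germinal center genes *Cd22*, *Dock10* and *Gimap8* had log2 fold changes of −0.11 ± 0.48, 0.35 ± 0.40 and 0.27 ± 0.32, and the lymphocyte genes *Cd48*, *Cd160* and *Cd244* had 0.41 ± 0.22, 1.18 ± 1.01 and 0.54 ± 0.38. With NAM-treated tumor 1 of experiment 2 added, the fold changes ranged from 0.82 (*Cd22*) to 1.19 (*Cd244*). The lowest unadjusted p by limma was then 0.092 (*Cd48*), and experiment and treatment cannot be told apart for the added tumor. Within experiment 1 the values were as follows. *Cd48* came closest, with 1130.1, 793.1, 842.6 and 939.9 in untreated and 1364, 949 and 1399.9 in NAM-treated tumors, where 1 untreated tumor exceeded the lowest NAM-treated tumor. For *Cd22* and *Dock10*, NAM-treated tumor 4 was the highest of the 7 and NAM-treated tumors 2 and 3 were within or below the untreated range. The study also followed *Gzmb*, *Prf1* and *Ifng* in such tumors by PCR after 7 days of NAM, against 10 days here. It reported higher levels with NAM, short of significance for *Prf1*. Interferon gamma (*Ifng*) had 114.3, 56.5, 52.6 and 57.9 against 57.2, 98.5 and 220.6 (0.68 ± 0.54) and did not pass. B cell markers were scarce in all 7 tumors, with summed counts of 20.3 to 973.3 for *Cd79a* and *Ms4a1*.

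No member passed in the lists of macrophages, dendritic cells, neutrophils, major histocompatibility complex (MHC) class I and II, interferon response or immune checkpoints by limma (0 at an unadjusted p of 0.05), edgeR or DESeq2. MHC class I was above 0 in 13 of 13 genes, by 0.01 to 0.38 on the log2 scale, and the tumors ran from 13.09 to 14.30 in the untreated and 13.49 to 14.75 in the NAM-treated group. *Ptprc*, the common leukocyte antigen, had 8034, 4352, 6652 and 4124 against 6625, 5003 and 11736 (0.39 ± 0.36), and *Cd68* of macrophages had 0.08 ± 0.23. Neither of these 2 genes nor any MHC class I gene reached the 1.5-fold threshold. Some members of the other lists did in either direction, such as *S100a9* (−3.67 ± 2.78) and *Icos* (0.93 ± 0.62), but the spread between tumors was wide.

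Matrix genes were mixed. Of 43 collagens, 6 were higher and 1 was lower, with 27 above 0 and a median of 0.28, where 2.85% of all genes tested were higher, 2.33% lower and 49.8% above 0. The collagen VI chain *Col6a1* had counts of 16601, 12069, 11669 and 18246 in untreated and 17580.1, 27521 and 61885 in NAM-treated tumors (1.11 ± 0.42), and its partner *Col6a2*, also on chromosome 10, had 11248, 6062, 7804 and 13918 against 13112, 20058 and 25577 (1.02 ± 0.35). NAM-treated tumor 2 lay within the untreated range for both, and the third chain *Col6a3* was at 0.23 ± 0.59. *Col13a1*, a transmembrane collagen, separated the groups, with 46.7, 276, 174.2 and 160.1 against 728.2, 1575 and 287.2 (2.32 ± 0.74), as did *Col18a1*, the precursor of endostatin, with 28229, 31444, 26820.4 and 28794 against 32074, 47160.3 and 53893 (0.59 ± 0.21). The fibrillar chains *Col1a1* and *Col3a1* were at −0.01 ± 0.71 and 0.32 ± 0.54.

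The count of higher collagens was 10 with the squamous and 3 with the muscle covariate, and 0 without NAM-treated tumor 3. *Postn*, a matricellular protein, had 33983, 50956, 48645 and 55806 against 70969, 56357 and 96290.4 (0.64 ± 0.26), and lost its call with either covariate, at 0.61 with the squamous and 0.37 with the muscle level. In developmental pathways, the Wnt antagonist *Sfrp2* was higher, with 1302, 1232, 1199 and 3184 against 7655, 1897 and 7607 (1.61 ± 0.58), and so were *Wnt6* (1.19 ± 0.43) and the Notch target *Hey1*, with 733.3, 4951, 500.9 and 745.2 against 3706, 4469.9 and 3462 (1.84 ± 0.74). For all 3 the groups overlap, and *Hey1* in untreated tumor 2 exceeded every NAM-treated tumor.

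The squamous and muscle lists had the widest differences and few calls. Of all genes tested, 49.8% were above 0, 2.85% were higher and 2.33% were lower. All 21 squamous genes tested were below 0, with a median of −3.35, and *Krt1* alone passed, with 37258, 7.61, 147490.2 and 118178 in untreated and 257, 7.36 and 13.6 in NAM-treated tumors (−8.10 ± 3.41). All 16 muscle genes were above 0, with a median of 3.34, and *Myh4* alone passed, with 0, 2.17, 6868 and 94.2 against 20959, 427.1 and 99687 (7.99 ± 3.20). In both lists the tumors of a group differed from each other by more than the groups did. Without NAM-treated tumor 3, 9 muscle genes were called higher, and without untreated tumor 2, 10 squamous genes were called lower. Of 9 genes of the salivary gland list 6 were tested, all 6 were above 0 and 2 were higher, and the marker *Bpifa2* was at 0 in all 7 tumors. *Amy1*, an amylase, had 612.8, 579.1, 639.8 and 763.7 against 837.8, 1643 and 1266 (0.90 ± 0.26), with no overlap. *Smr3a* had 2.08, 19.6, 1.502 and 1.61 against 11.0, 163.8 and 42.5 (3.29 ± 1.13), highest in NAM-treated tumor 3. The call of *Smr3a* was lost with the squamous covariate, at 1.95, while that of *Amy1* held without each tumor and with either covariate.

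Genes of proliferation and of the ribosome were mostly a little below 0. Of 28 cell cycle genes 1 was above 0, with a median of −0.22 and 0 calls by limma (0 at an unadjusted p of 0.05), edgeR or DESeq2, and *Mki67* had 7755, 5467, 4249.7 and 2294 in untreated and 2601, 6139.7 and 2568 in NAM-treated tumors (−0.39 ± 0.48). Of 81 cytosolic ribosomal protein genes 5 were above 0, with a median of −0.25, 0 calls by limma (1 at an unadjusted p of 0.05), 0 by edgeR and 1 by DESeq2. For both lists NAM-treated tumor 4 was the lowest of the 7, at 10.51 for cell cycle and 13.62 for ribosomal protein genes. Over all 48 lists, 22 had no member past the thresholds. Scaling by the upper quartile moved the median of all genes by 0.11 on the log2 scale and took the share of higher among called genes from 55.0% to 69.1%, and the list medians above are given without that shift.

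NAM-treated tumor 1, of experiment 2, stood apart from the 7 described. Its summed luminal markers were 4143 against 62053.9 or more in the others, and its summed count of *Cd79a* and *Ms4a1* was 87076 against at most 973.3. With it added to the NAM-treated group, 59.8% of the higher and 78.4% of the lower calls remained, and the non-overlapping genes went from 1487 to 961. *Fam180a* was at 78.1, *Pi15* at 13.6 and *Adrb3* at 1405 in it, on the side of the NAM-treated tumors. *Lgr5* was at 399.8, just above the highest untreated tumor, *Srebf2* was at 4443, among the untreated tumors, and *Cd22* and *Dock10* at 5295 and 13734, above all 7. *Gimap8*, *Cd48* and *Cd244* were also above all 7, at 3254, 5232 and 1731, while *Cd160*, at 64.5, was within the range of the 7. Experiment and treatment cannot be told apart for this tumor, as experiment 2 has no untreated tumor here.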

How the data were processed

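Poly(A) RNA of 7 M/D-driven tumors of experiment 1 was compared, 4 untreated and 3 NAM-treated, grouped by the sample labels. As deposited, the table holds a normalized signal that the authors made as follows: reads were mapped with STAR 2.4.0 on mm10, counted on the genes of FAST DB, and the counts of each tumor were divided by a DESeq2 size factor. Every value was a whole multiple of the smallest value of its tumor (100% within a tolerance of 0.01), so that whole reads were recovered. Columns of values left unmapped numbered 0.

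Levels were tested as log2(value + 1) in limma 3.58.1 (R 4.3.3; lmFit, eBayes with trend) for genes reaching a mean of 10 or more in either group, two-sided, with Benjamini-Hochberg adjustment over all 21489 genes. Fold changes on this scale understate those of low genes. Genes passed with an unadjusted p no higher than 0.05 and a change of 1.5-fold or more, after the study's methods. Errors are standard errors of the fit. Separate samples are labelled as separate tumors, and p-values measure the spread between them. For 6 named genes, exact permutation tests were run in scipy 1.17.1.

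Named were the 15 higher and 15 lower genes with the largest fold change among those past the thresholds with non-overlapping groups, a mean of at least 50 and a symbol of their own, 6 immune genes the study names from its transcriptomes, *Fam180a*, up to 4 members a direction of each list, and 12 reference genes. Chromosome 18 was left out, and some genes of the cholesterol and B cell lists are not reported here. Members outside this rule (*Krt10*, *Ckm*, *Csf3r*, *Ifng*, *Aox3*, *Ido1*, *Prf1*, *Sirt1*, *Esrp1*, *Plin1*, *Insig1*, *Hmgcs1*, *Fdps*, *Cyp51*, *Sqle*, *Col6a3*, *Col1a1*, *Col3a1*) were chosen after their values were seen. The tumors, the 48 gene lists and the tests were chosen with earlier results of these data known.

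As alternatives, the pseudocount was set to 0.5 or 5, the filter was dropped or raised to a mean of 50, and the following were tried: TMM or upper quartile scaling, the edgeR 4.0.16 quasi-likelihood and DESeq2 1.42.0 Wald tests on recovered reads, the replicate number as a block, NAM-treated tumor 1 included, and each tumor left out. The squamous and muscle list levels as covariates were added after the data were seen. Scripts were tested on simulated data. Promoters came from RefSeq on GRCm38.p6.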

Additional observations from a re-analysis of the deposited data

Results flagged for a closer look

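Among untreated tumors, 12 of 137 sets of 4 values (8.76%, each a gene or a list level) had 1 tumor far from the other 3 by Dixon's criterion (a gap to the nearest tumor that takes most of the range). Chance flags about 1 in 20 sets of normally distributed values, but 8 of the 12 are sets of unlogged counts, so that the share is not read against it. In untreated tumor 2, the tumor without keratinization, the far values were high: *Kcns1* at 3500.7 counts, *Hey1* at 4951.2, *Smr3a* at 19.56 and the salivary gland list at a mean log2 of 7.09. In untreated tumor 4, *Ube2ql1* was at 59.55 counts, *Sfrp2* at 3184.4, *Adipoq* at 7451.9 and the complement list at 12.45. Untreated tumor 3 stood out for *Myh4* at 6867.5 counts and the histone list at 6.86, and untreated tumor 1 for *Klrb1c* at 197.4 counts and for a low basal and myoepithelial list at 12.63.

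NAM-treated tumor 1 of experiment 2, which lies outside the comparison of the 7 tumors and was added to it only as an alternative, lay above all 4 untreated tumors of experiment 1 in the mean log2 level of 6 of 48 lists. These were B cells at 11.83 (4.30 to 7.48 in untreated tumors), plasma cells at 10.10, cell cycle at 13.16, endothelium at 11.16, NAD+ consumers at 10.83 and the nuclear respiratory chain at 12.73. No untreated tumor of experiment 2 was given to set beside it.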

How the results depend on the processing

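Counts of genes past the thresholds (612 higher and 500 lower) were within 1.5 times the reported counts under pseudocounts of 0.5 and 5, TMM and upper quartile scaling, and with NAM-treated tumor 1 added. Without a filter on low values 1236 genes were higher, and with a minimum mean of 50, 328 were. The edgeR test called 922 higher, and DESeq2 1032 higher, 790 lower and 150 at an adjusted p of 0.05, a count that was 0 in the limma fit and 1 with NAM-treated tumor 1 added, when 961 genes did not overlap. With the squamous covariate 971 were higher and 770 lower, and with the muscle covariate 319 were higher. Leaving out each tumor gave 344 to 1322 higher, 323 to 1167 lower, 0 to 10 at an adjusted p of 0.05 and 1487 reported non-overlapping genes became 1962 to 5390. The lowest higher count was without NAM-treated tumor 4 (371 without untreated tumor 1), the highest counts without NAM-treated tumor 2 (1322 and 1167), the 10 adjusted calls and 1092 lower genes without untreated tumor 2, and 323 and 326 lower genes without untreated tumors 3 and 4. Fewer tumors leave less chance of overlap by construction, and the cause of the other changes was not tested.

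The numbers of same-numbered tumors mark no pair: deviations from the group means correlated at −0.47, −0.31 and −0.27, and no NAM-treated tumor correlated best with the untreated tumor of its own number. With the replicate number as a block, which leaves untreated tumor 1 without a partner, 196 genes were higher and 252 lower. Genes called here whose sign changed were *Gzmc* (−0.14), *Postn* (−0.085) and *Col18a1* (−0.079), all with NAM-treated tumor 1 added.

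Signs of genes that did not pass were less stable. *Cd22* was at 0.0 with upper quartile scaling, 0.077 with edgeR, 0.045 with DESeq2, 0.052 with the replicate block, 0.82 with NAM-treated tumor 1 added, and −0.65 to 0.20 with a tumor left out. *Nampt* was at 0.073 with upper quartile scaling, 0.117 with the block, 0.069 with NAM-treated tumor 1 added and −0.14 to 0.12 with a tumor left out. *Esr1* was at −0.17 with the block, −0.20 with the squamous covariate and −0.22 to 0.92 with a tumor left out. *Pgr* was at 0.35 with edgeR, 0.32 with DESeq2, 0.92 with the muscle covariate and −1.11 to 1.26 with a tumor left out. *Krt8* was at −0.65 with NAM-treated tumor 1 added and −0.66 with the squamous covariate. *Krt14* was at 0.84 with the squamous covariate and −2.04 to 0.074 with a tumor left out. *Mki67* was at 0.08 with NAM-treated tumor 1 added and 0.26 with the muscle covariate. *Cd3e* was at −0.046 with NAM-treated tumor 1 added and −0.072 to 0.84 with a tumor left out. With a tumor left out, *Dock10* ranged from −0.10 to 0.73, *Cd8a* from −0.14 to 0.85 and *Cd68* from −0.065 to 0.23.

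The lowest depth was 50391585 reads, and the median residual SD between tumors was 0.54 on the log2 scale.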

Other observations

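NAM-treated tumor 2 carried RNA of hair keratins that was near 0 elsewhere, and the second principal component (17.1% of the variance of the 1000 most variable genes) set it apart. These genes were singled out after their values were seen. *Krt31*, an acidic keratin of the hair shaft, had a count of 33339.5 in it against 0.80 to 43.6 in the 6 other tumors of experiment 1. *Krt81*, a basic hair keratin, had 64125 against 0 to 47.8, and *Krt86* had 38130.3 against 0 to 48.8. None of these passed the thresholds, since NAM-treated tumors 3 and 4 were at the untreated level, and *Crym*, which did, was highest in the tumor of these keratins (9921 counts).

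Milk protein genes varied widely between tumors, with a median log2 fold change of −1.46 over the list. *Csn2*, which encodes beta-casein, had counts of 385.4, 56170 and 86389 in untreated tumors 1 to 3, 853.8 in untreated tumor 4, and 21.9, 1815 and 1005.2 in NAM-treated tumors 2 to 4. The log2 fold change was −4.19 ± 2.38, which did not pass, and 0 of the 12 milk genes passed by limma (0 at an unadjusted p of 0.05; 0 by edgeR and 5 by DESeq2).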
